A study of Homo sapiens with 28 samples.

Results

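Newly made RNA was compared between Jurkat cells 1 h after activation and unactivated Jurkat cells. Jurkat is an established human T cell leukaemia line, here grown in RPMI1640. Activated cells had received the phorbol ester PMA at 0.5 µg/ml, an activator of protein kinase C, together with phytohaemagglutinin (PHA) at 2 µg/ml, a lectin that engages the T cell receptor. Unactivated cells are labelled only as such. New transcripts carried 4-thiouridine, were coupled to biotin-HPDP and were captured on streptavidin beads, and libraries were made with ScriptSeq after ribosomal RNA had been depleted with RiboZero. The comparison took the authors' mean and SD of labelled RNA at 1 h (2 samples) and in unactivated cells (3 samples), which are 5 of the 28 samples of the series, and all 7485 genes of the deposited table. How long 4-thiouridine was present was not stated in the sources used here. The series describes the samples as biological replicates of a single line, so the spread below is that between these samples.

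PMA and receptor engagement activate the MAP kinase cascade and free the transcription factor NF-kB from its inhibitors. Genes whose promoters are already poised, the immediate early genes, are then transcribed without new protein synthesis, and many of them encode transcription factors or inhibitors that switch the same signals off again. Labelled RNA holds recent transcripts and so reads synthesis with little of the older RNA, whereas total RNA holds both.

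All values are on the authors' normalised scale, and how it was made was not stated in the sources used here. The deposited means of labelled RNA sum to 913919 in unactivated cells and to 992387 at 1 h, so a change is a change relative to the other genes. In bulk RNA, less RNA per cell and fewer cells that make it cannot be told apart. The deposited table gives no value for a single sample. If the deposited SD is a sample SD, the mean and SD of 2 samples give back both values at 1 h, although not which sample each belongs to. With 3 samples, they then give the widest range in which every unactivated value must lie, called the possible range below. A check found a sample SD in total RNA at 1 h. In labelled RNA the check succeeded for only 85 of 2699 genes, so there it is assumed. The depth of the labelled libraries is unknown. The median coefficient of variation was 18.2% in unactivated cells and 11.6% at 1 h. Of 13 T cell markers 6 were measured, including CD3D, CD3G, LCK and ZAP70, with a summed level of 1090 before activation and 1283 at 1 h and 0 called. CD3E, CD2, CD5, CD7 and the constant segments of the receptor were not among the measured genes. Of 8 myeloid markers AIF1 and VCAN were measured (summed level 96.7 and 81.3), of 6 fibroblast markers THY1 and VIM (273 and 318), and of B cell, NK cell, epithelial and erythroid markers 0 were measured.

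After 1 h, 314 genes were higher in labelled RNA and 155 were lower, which is 4.2% and 2.07% of the 7485 genes (limma on the log2(value + 1) scale, Benjamini-Hochberg adjusted p under 0.05). Of the 314 rises 78 passed 1 on the log2 scale and 15 passed 2, against 55 and 1 of the 155 falls, so the share past 1 was larger among the falls and the share past 2 among the rises. The smallest called rise was 0.34 and the smallest called fall -0.36, and the median change of all genes was 0.03. With quantile normalisation the split was 211 up and 161 down. Both values at 1 h lay above the possible range of the unactivated samples for 1074 genes (14.3%) and below it for 661 (8.83%). This held for 309 of the 314 called rises and 144 of the 155 called falls. The ranges and the calls use the same means and SDs, so these counts are no separate support.

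**Figure D1:**
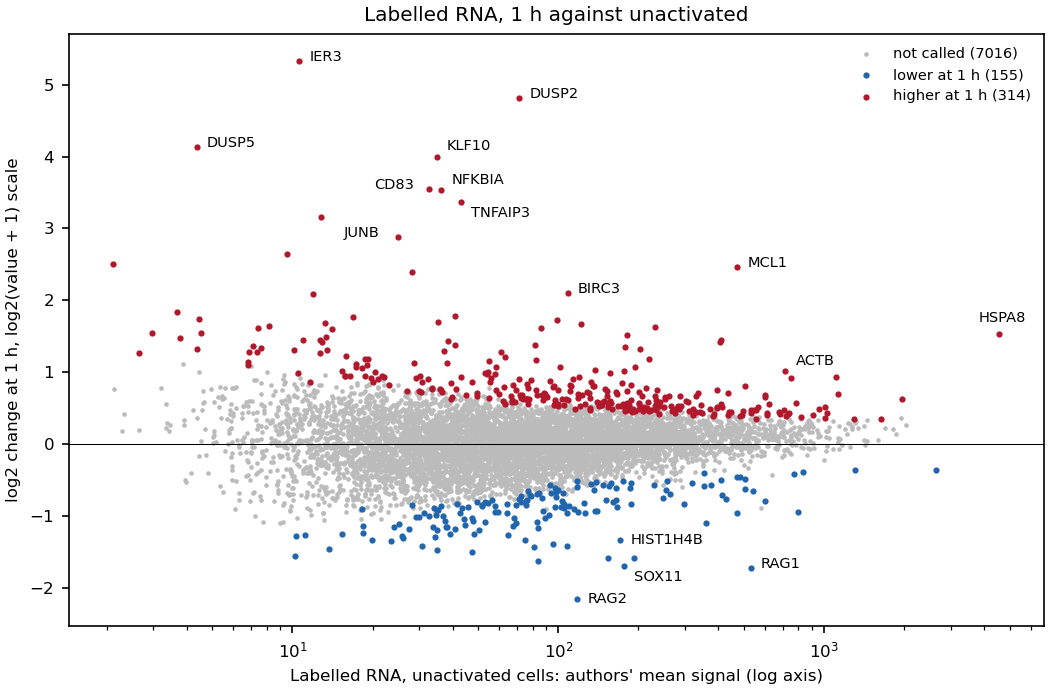
Each point is a gene: the horizontal axis is its mean labelled signal in unactivated cells (3 samples, log axis), the vertical axis its log2 change at 1 h. Red points are the 314 called rises, blue points the 155 called falls; the rises reach 5.33 (IER3) and the falls -2.16 (RAG2).

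The genes with the largest rises encode early regulators. IER3, an early gene whose product limits cell death, had a mean of 10.6 ± 4.23 (SD, n = 3) in unactivated cells, with a possible range of 5.67 to 15.5, and values of 446 and 485 at 1 h. Both activated samples lay far above every possible unactivated value, at 44.1 times the unactivated mean, a log2 change of 5.33 ± 0.21 (SE). KLF10, a TGF-beta-inducible zinc finger transcription factor, went from 34.8 ± 10.3 to 571 and 572 (4.00 ± 0.16), and the activated samples were almost equal. JUNB, part of the AP-1 dimer, went from 24.9 ± 12.1 to 186 and 191 (2.87 ± 0.28). The adjusted p by limma was 9.08e-17 for IER3, 1.01e-23 for KLF10 and 9.89e-10 for JUNB.

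Of 16 measured immediate early factors, from a list of 41, 9 rose, 0 fell and 7 were not called, with a median change of 0.82 against 0.03 over all genes. Counts in this and the later lists stand beside 4.2% of all genes called higher and 2.07% called lower. NAB1, a corepressor of EGR factors, had 98.8 ± 30.1 before and 304 and 353 after activation (1.72 ± 0.15). The nuclear protein CSRNP1 (1.44 ± 0.27), the inhibitor of DNA binding ID3 (1.31 ± 0.30), SRF (1.00 ± 0.22), the antiproliferative gene BTG1 (0.94 ± 0.28) and the interferon regulatory factor IRF1 (0.63 ± 0.18) rose as well. The calls of BTG1 and IRF1 were lost when only the 2 groups were fitted, and that of NAB1 on the linear scale. MYC, the growth-driving transcription factor, had 636 ± 125 in unactivated cells and values of 405 and 532 at 1 h. Its activated values overlapped the possible range of 491 to 780, and it was not called (-0.44 ± 0.17, adjusted p = 0.110), although limma called it lower with quantile normalisation (adjusted p = 0.0191) and also on the linear scale. EGR1 and FOS were not among the measured genes.

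Feedback inhibitors of MAP kinases had 5 of 12 measured members up and 0 down, with a median change of 0.41. DUSP2, a phosphatase that inactivates ERK in the nucleus, rose from 71.1 ± 16.2 to 1910.2 and 2133 (4.81 ± 0.14). DUSP5, a second ERK phosphatase, rose from 4.36 ± 0.73 to 88.0 and 98.5 (4.14 ± 0.15). For both genes the activated samples lay close together and clear of the unactivated range. SPRY2, a Sprouty inhibitor of receptor signalling to RAS, rose from 17.4 ± 3.97 to 25.9 and 48.9 (1.06 ± 0.26), so its activated samples differed more from each other than their mean did from the unactivated mean. The related inhibitor SPRED1 (0.66 ± 0.19) and the RAS GTPase activator RASA2 (0.62 ± 0.18) also rose. SPRY2, SPRED1 and RASA2 were not called when only the 2 groups were fitted, and DUSP2 was the 1 of the 12 called on the linear scale. DUSP1 had 0.48 and SPRY1 -0.56, neither called.

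**Figure D2:**
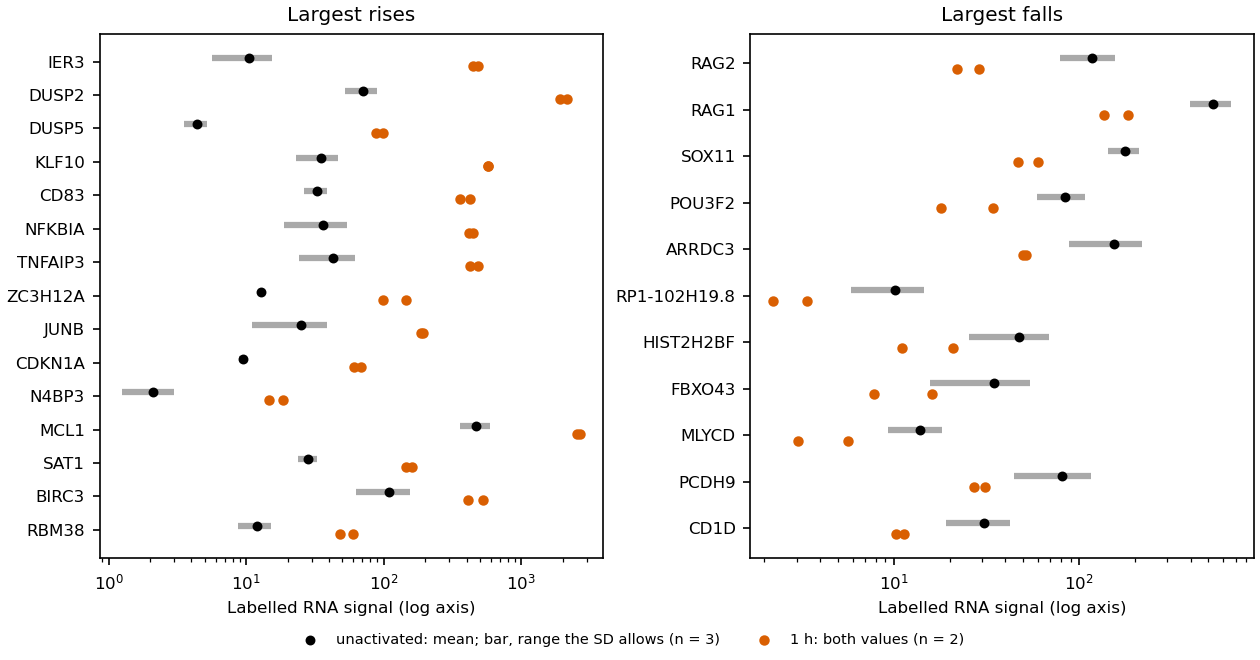
Labelled RNA signal (log axis) of the 15 largest rises and of the largest falls. Black points are means of the 3 unactivated samples, grey bars the possible range that their SD allows, and orange points both values at 1 h; the orange points lie outside the grey bar for every gene shown except FBXO43, whose higher value of 15.99 lies just inside its range of 15.7 to 54.2.

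The NF-kB list had 7 of 18 measured members up and 0 down, with a median change of 0.44. The largest rises in it were those of CD83, NFKBIA and TNFAIP3. NFKBIA, which encodes the IkBα protein that holds NF-kB in the cytoplasm, rose from 36.3 ± 15.04 to 419 and 444 (3.54 ± 0.23). TNFAIP3, the ubiquitin-editing enzyme A20 that stops signalling upstream, rose from 43.0 ± 16.2 to 426 and 480.0 (3.37 ± 0.20). BIRC3, an E3 ligase and inhibitor of apoptosis, rose from 108 ± 39.7 to 411 and 527 (2.10 ± 0.18). In all 3 genes both activated samples were above the possible range of the unactivated ones. CD83, a surface protein of activated lymphocytes, rose from 32.5 ± 5.43 to 360.4 and 425 (3.55 ± 0.16). Of the NF-kB subunits, REL rose from 37.1 ± 5.15 to 83.1 and 102 (1.30 ± 0.19) and NFKB1 from 82.5 ± 9.49 to 172 and 203 (1.17 ± 0.14), whereas RELA had a change of 0.05 and was not called. A second inhibitor, NFKBIB, rose by 1.00 ± 0.26.

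The bases upstream of NFKBIA, TNFAIP3 and BIRC3 are shown because these genes rose together and their promoters hold the kappaB motif, the letters that NF-kB binds. Of the other rises past 1 in the list, CD83, the largest, held 0 matches, REL 2 and NFKB1 1. Sequences are from the RefSeq table of build GRCh38.p14, 5′ to 3′ on the gene's strand, and end at the base before the annotated start. Capitals mark matches, on either strand, to kappaB and, in NFKBIA, to a TATA box. NFKBIA lies on the minus strand at chr14:35404750-35404999, with its kappaB match 81 to 72 bases before the start. The TATA box match, 33 to 28 bases before the start, reads on the strand opposite to the gene. TNFAIP3, on the plus strand at chr6:137867009-137867258, holds matches 67 to 58 and 55 to 46 bases before the start. BIRC3, on the plus strand at chr11:102317234-102317483, holds them 199 to 190 and 135 to 126 bases before it.
NFKBIA: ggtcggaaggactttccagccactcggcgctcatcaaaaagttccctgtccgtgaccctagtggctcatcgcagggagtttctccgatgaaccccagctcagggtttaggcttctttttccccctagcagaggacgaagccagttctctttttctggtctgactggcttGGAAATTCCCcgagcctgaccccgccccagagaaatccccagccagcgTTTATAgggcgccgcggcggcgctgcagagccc
TNFAIP3: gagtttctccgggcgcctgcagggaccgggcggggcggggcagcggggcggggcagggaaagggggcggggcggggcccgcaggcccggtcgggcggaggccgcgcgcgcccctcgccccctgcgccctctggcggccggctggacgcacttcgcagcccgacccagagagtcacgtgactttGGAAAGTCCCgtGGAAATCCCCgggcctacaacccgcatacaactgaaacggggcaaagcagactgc
BIRC3: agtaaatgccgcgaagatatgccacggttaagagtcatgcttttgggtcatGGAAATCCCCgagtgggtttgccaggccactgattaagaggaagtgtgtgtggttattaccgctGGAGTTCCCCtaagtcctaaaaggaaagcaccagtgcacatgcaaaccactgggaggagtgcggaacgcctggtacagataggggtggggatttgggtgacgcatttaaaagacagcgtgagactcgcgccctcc

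The same search was made over the promoters of all genes, in windows from 250 bases before to 50 after the start. A promoter was matched for 6245 of the 7485 genes (83.4%), for 252 of the 314 called rises and for 63 of the 78 rises past 1. The kappaB motif was present in 5.86% of the promoters of all measured genes and in 5.72% of all 27305 promoters of the table. Among called rises it was present in 10.3% (26 of 252), and among rises past 1 in 22.2% (14 of 63). The EGR motif (GCGNGGGCG) was present in 15.2% of measured genes, 9.28% of the table, 23.8% of called rises and 33.3% of those past 1. The TATA box (TATAAA) was present in 4.9% of measured genes, 12% of the table, 10.3% of called rises and 12.7% of those past 1. The AP-1 motif (TGANTCA) had 3.88% of measured genes, 7.76% of the table and 3.97% of called rises, and the CRE (TGACGTCA) 3.89%, 1.98% and 3.97%. The CCAAT box (CCAAT) stood at 38.1%, 35.7% and 35.3%. Both strands were searched and matches could overlap. The shares are descriptions of letters, base composition was not matched between the sets, and no share is shown to be particular to the rises. Among the falls 119 of 155 had a promoter in the table, under the 80% set for such a check, which is void for them. In those 119 the kappaB share was 8.4%, the EGR share 20.2%, the TATA box share 9.24% and the CCAAT share 43.7%. Of the 55 falls past 1, 40 had a promoter, and their CCAAT share was 62.5%.

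Genes of survival and growth arrest were also among the largest rises. MCL1, a short-lived BCL2 family survival factor, rose from 472 ± 99.7 to 2535 and 2674 (2.46 ± 0.12). Of 25 measured apoptosis regulators 3 rose, MCL1 and BIRC3 among them, and 0 fell (median 0.16). CDKN1A, the cyclin-dependent kinase inhibitor p21, rose from 9.52 ± 0.55 to 60.8 and 68.2 (2.64 ± 0.27), and RBM38, an RNA-binding protein that binds CDKN1A mRNA, from 11.9 ± 2.76 to 47.998 and 59.3 (2.08 ± 0.25). These 2 were the p53 targets that rose of 12 measured, while the DNA damage sensor XPC fell from 53.1 ± 3.06 to 25.7 and 34.0 (-0.81 ± 0.25). The call of XPC was lost with quantile normalisation, a constant prior variance or only the 2 groups. The list's median was 0.29. SAT1, which acetylates polyamines, rose from 28.1 ± 3.78 to 145 and 159 (2.39 ± 0.17). N4BP3, whose level was among the lowest measured, rose from 2.12 ± 0.74 to 14.6 and 18.6 (2.50 ± 0.30). ZC3H12A, the endonuclease regnase-1 that degrades inflammatory mRNAs, rose from 12.8 ± 0.53 to 98.9 and 145 (3.15 ± 0.23). It recognises stem-loops, and it was the only gene called of 30 measured in a list of RNA-binding proteins, among them AU-rich element binding proteins, that steer mRNA stability (median 0.07), and ELAVL1, which encodes HuR, was level at 81.1 ± 8.54 and at 80.0 and 85.1 (0.03 ± 0.19, adjusted p = 0.957).

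Among genes of the T cell surface and its signalling, a few rose, some of them from low levels. IL27RA, a cytokine receptor, rose from 3.67 ± 1.83 to 15.6 and 15.7 (1.83 ± 0.28), and the tetraspanin CD82 from 7.44 ± 0.69 to 24.2 and 25.5 (1.62 ± 0.25). These were the 2 of 7 measured activation markers that rose, and the list holds 39 genes, so the usual cytokines and early surface markers, such as IL2 and CD69, were not among the measured genes. Of 37 measured genes of the receptor complex and proximal signalling 4 rose (10.8%) and 1 fell (2.7%), against 4.2% and 2.07% of all genes (median 0.09). PTPN7, a MAP kinase phosphatase of lymphocytes, rose from 178 ± 23.5 to 414 and 495 (1.34 ± 0.13). LCP2, the adaptor SLP-76, rose from 61.0 ± 13.3 to 134 and 165 (1.28 ± 0.16), and the adaptors SIT1 (1.31 ± 0.27) and TRAT1 (0.93 ± 0.15) rose too. The calls of IL27RA, CD82 and SIT1 were lost on the linear scale. FYB, the adaptor that binds SLP-76, fell from 254 ± 18.8 to 132 and 193 (-0.64 ± 0.17). Of 22 calcineurin and NFAT genes, NFATC1 (1.28 ± 0.31) and HOMER1 (0.63 ± 0.17) rose and the calcium sensor STIM2 fell (-0.72 ± 0.22), with a median of 0.05. STIM2 and HOMER1 were not called when only the 2 groups were fitted.

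Heat shock chaperones formed a further group, with 8 of 36 measured members up and 0 down (median 0.22). HSPA8, the constitutive HSC70 chaperone, had the highest level of all genes in unactivated cells. It stood at 4561 ± 623, with a possible range of 3841 to 5280.5, and at 12462 and 13747 after 1 h, a log2 change of 1.52 ± 0.11. Under quantile normalisation HSPA8 has a change of 0 by construction, since it ranks first in both groups. DNAJB1, the HSP40 cochaperone that delivers clients to HSP70, rose from 122 ± 31.3 to 349 and 427 (1.66 ± 0.18). The chaperones of the endoplasmic reticulum HSPA5 (BiP) and HSP90B1 (GRP94) rose from 203 ± 31.5 to 505 and 513 (1.32 ± 0.30) and from 1112 ± 60.0 to 1936 and 2308 (0.93 ± 0.11). DNAJA2 (0.63 ± 0.13), HSP90AA1 (0.62 ± 0.11), DNAJA1 (0.57 ± 0.11) and HSPA14 (0.47 ± 0.15) rose by less. HSF2, a heat shock factor, had -0.08 and was not called. With quantile normalisation 5 of the 36 rose. HSPA8 has processed pseudogenes, and how reads shared with such copies were counted was not stated in the sources used here.

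The promoter of HSPA8 is shown because it holds the heat shock element, the inverted repeat bound by heat shock factors, at 2 places. Of the other chaperones that rose past 1, DNAJB1 and HSPA5 held 0 matches, and the other rise past 1 with a match was CD83. The element was searched as GAA, TTC and GAA in a row, or TTC, GAA and TTC, with NN between neighbours. It was present in 0.304% of measured genes, 0.487% of the table, 1.19% of called rises (3 of 252) and 3.17% of rises past 1 (2 of 63). The window lies on the minus strand at chr11:123062137-123062386 of GRCh38.p14, and the capitals mark the element 230 to 218 and 55 to 43 bases before the start.
HSPA8: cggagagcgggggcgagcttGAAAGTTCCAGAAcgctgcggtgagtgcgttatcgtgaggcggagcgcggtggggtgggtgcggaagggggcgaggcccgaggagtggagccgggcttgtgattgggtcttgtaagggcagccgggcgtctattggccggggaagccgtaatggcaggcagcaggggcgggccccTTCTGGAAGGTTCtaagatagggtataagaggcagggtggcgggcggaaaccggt

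The list of the unfolded protein and integrated stress response was split, with 3 of 26 measured members up, 3 down and a median of -0.02. Its counts leave out the endoplasmic reticulum chaperones HSPA5 and HSP90B1, which rose and are counted above with the heat shock chaperones. PPP1R15A (GADD34), which recruits the phosphatase that reverses eIF2α phosphorylation, rose from 40.8 ± 8.89 to 96.5 and 119 (1.38 ± 0.22). PPP1R15B, its constitutive paralogue, rose by 0.67 ± 0.14 and the amino acid transporter SLC7A5 by 0.86 ± 0.20. PHGDH, the first enzyme of serine synthesis, fell from 44.0 ± 1.35 to 17.3 and 24.2 (-1.05 ± 0.28). STC2 (-1.03 ± 0.27) and the lipoprotein receptor VLDLR (-0.92 ± 0.25) fell as well. The falls of PHGDH and STC2 were not called with a constant prior variance, nor that of VLDLR when only the 2 groups were fitted.

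Cytoskeletal genes, many of them targets of serum response factor (SRF), had 7 of 30 measured members up, 0 down and a median of 0.31. TPM4, a tropomyosin that stabilises actin filaments, rose from 181 ± 8.05 to 409 and 629 (1.51 ± 0.15). ACTG1 and ACTB, the cytoplasmic actins, rose from 408 ± 85.1 to 1009 and 1214 (1.44 ± 0.26) and from 713 ± 96.7 to 1136 and 1732 (1.01 ± 0.19). The activated samples of TPM4 and ACTB differed from each other, yet all lay above the possible unactivated range. CORO1A, an actin-binding coronin of leukocytes (1.13 ± 0.23), PFN1, which feeds actin monomers to growing filaments (1.07 ± 0.16), the myosin light chain MYL12A (0.91 ± 0.16) and the ARP2/3 subunit ACTR3 (0.75 ± 0.12) completed the group. SRF itself rose from 54.4 ± 1.81 to 101 and 118. The actin genes are near-identical and have many pseudogenes, so the split of reads between ACTB and ACTG1 is uncertain. GAPDH, often used as a reference, had 686 ± 152 and then 677 and 851 (0.15 ± 0.26, adjusted p = 0.802).

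The promoters of SRF and ACTG1 are shown because both hold the CArG box, the motif that SRF binds. It was present in 1.1% of measured genes, 1.29% of the table, 3.17% of called rises (8 of 252) and 6.35% of rises past 1 (4 of 63). Of the other cytoskeletal rises past 1 with a matched promoter, TPM4 held 1 match, and CORO1A and PFN1 held 0. SRF lies on the plus strand at chr6:43171019-43171268, with CArG boxes 30 to 21 and 10 to 1 bases before the start, and ACTG1 on the minus strand at chr17:81512800-81513049, with a CArG box 94 to 85 bases before it. Capitals mark the boxes.
SRF: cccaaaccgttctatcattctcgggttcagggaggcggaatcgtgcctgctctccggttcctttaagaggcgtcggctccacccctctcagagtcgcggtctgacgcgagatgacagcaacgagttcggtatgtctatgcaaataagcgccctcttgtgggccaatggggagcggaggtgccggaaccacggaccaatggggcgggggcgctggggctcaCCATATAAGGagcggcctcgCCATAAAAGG
ACTG1: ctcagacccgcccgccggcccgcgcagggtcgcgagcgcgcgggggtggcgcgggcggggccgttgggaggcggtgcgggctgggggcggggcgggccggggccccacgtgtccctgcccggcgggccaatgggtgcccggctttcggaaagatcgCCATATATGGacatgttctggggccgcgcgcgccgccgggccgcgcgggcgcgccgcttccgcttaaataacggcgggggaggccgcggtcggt

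The largest falls lay in a list named for T lineage factors, which also counts SOX11 and POU3F2. Those 2 genes are not specific to T cells. Of its 28 measured transcription factors and recombinase genes 9 fell and 2 rose, with a median of -0.20. RAG2 and RAG1, which together cut DNA in antigen receptor rearrangement, fell from 117 ± 33.8 to 22.0 and 28.99 (-2.16 ± 0.32) and from 529 ± 114 to 136 and 183 (-1.72 ± 0.23). SOX11, a transcription factor of progenitors, fell from 176 ± 28.9 to 47.0 and 60.1 (-1.70 ± 0.24), and POU3F2, a POU domain factor, from 83.5 ± 20.7 to 18.04 and 34.3 (-1.64 ± 0.28). All activated values of these 4 genes lay below the possible unactivated range. MYB, needed for thymocyte development, fell from 795 ± 35.9 to 366 and 455 (-0.95 ± 0.12). TCF7, the factor TCF-1, fell from 188 ± 24.4 to 104.5 and 104.7 (-0.84 ± 0.18). IKZF1 (-0.47 ± 0.13), ETS1 (-0.46 ± 0.14) and the chromatin organiser SATB1 (-0.39 ± 0.11) fell by less. ID3 and RUNX3 (1.06 ± 0.24) were the members that rose, and LEF1 (0.08), TAL1 (0.38) and BCL11B (-0.18) were not called.

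Other large falls came from varied genes. ARRDC3, a member of the arrestin family, fell from 154 ± 56.4 to 49.8 and 51.4 (-1.58 ± 0.19). PCDH9, a protocadherin, fell by 1.44 ± 0.28 on the log2 scale and CD1D, which presents lipid antigens, by 1.42 ± 0.35. FBXO43, an inhibitor of the anaphase-promoting complex, fell by 1.48 ± 0.32 and MLYCD, malonyl-CoA decarboxylase, by 1.47 ± 0.34. RP1-102H19.8, at 10.2 ± 3.77 before and 2.23 and 3.38 after activation, fell by 1.56 ± 0.38. The levels of RP1-102H19.8 and MLYCD were low, and neither call held on the linear scale.

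Replication-dependent histone genes, which supply histones in S phase and make mRNAs without a poly(A) tail, were the list with the lowest median. Of 38 measured members 18 fell and 0 rose, 37 had a change below 0, and the median was -0.62. HIST2H2BF fell from 47.3 ± 18.8 to 11.1 and 20.7 (-1.51 ± 0.29), HIST1H4D from 108 ± 15.4 to 27.4 and 51.7 (-1.42 ± 0.24) and HIST1H4B from 171 ± 34.8 to 61.4 and 72.7 (-1.34 ± 0.20). Among more abundant members the linker histone HIST1H1B went from 361 ± 101 to 138 and 197 (-1.10 ± 0.27), and HIST1H2BD from 504 ± 46.4 to 280.0 and 441 (-0.48 ± 0.15). The falls thus differed in size within the family. These genes are near-identical copies, and their reads may be split between members. With a constant prior variance 10 of the 38 were called lower and with quantile normalisation 22. Replication-independent histones went the other way, with H1F0 (1.22 ± 0.31) and H3F3B (0.44 ± 0.12) up of 8 measured, 0 down and a median of 0.20, although with a constant prior variance 0 of them were called.

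Cell cycle lists showed no such count. The shares called higher were 2.08% for replication and G1/S and 3.77% for G2 and M phase, against 4.2% of all genes. Of 48 genes of DNA replication and the G1/S transition 1 rose and 2 fell (median -0.08). RRM2, a ribonucleotide reductase subunit, rose from 235 ± 38.1 to 373 and 414 (0.74 ± 0.14), while the repressor E2F8 (-0.92 ± 0.26) and cyclin CCNE2 (-0.57 ± 0.17) fell. Of 53 genes of G2 and M phase CCNB1 (0.43 ± 0.14) and TOP2A (0.37 ± 0.11) rose and 0 fell, with a median of -0.02 that turned to 0.003 with median centring. Calls of CCNB1, TOP2A, E2F8 and CCNE2 were lost when only the 2 groups were fitted. With quantile normalisation 0 of the 53 genes of G2 and M phase were called.

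**Figure D3:**
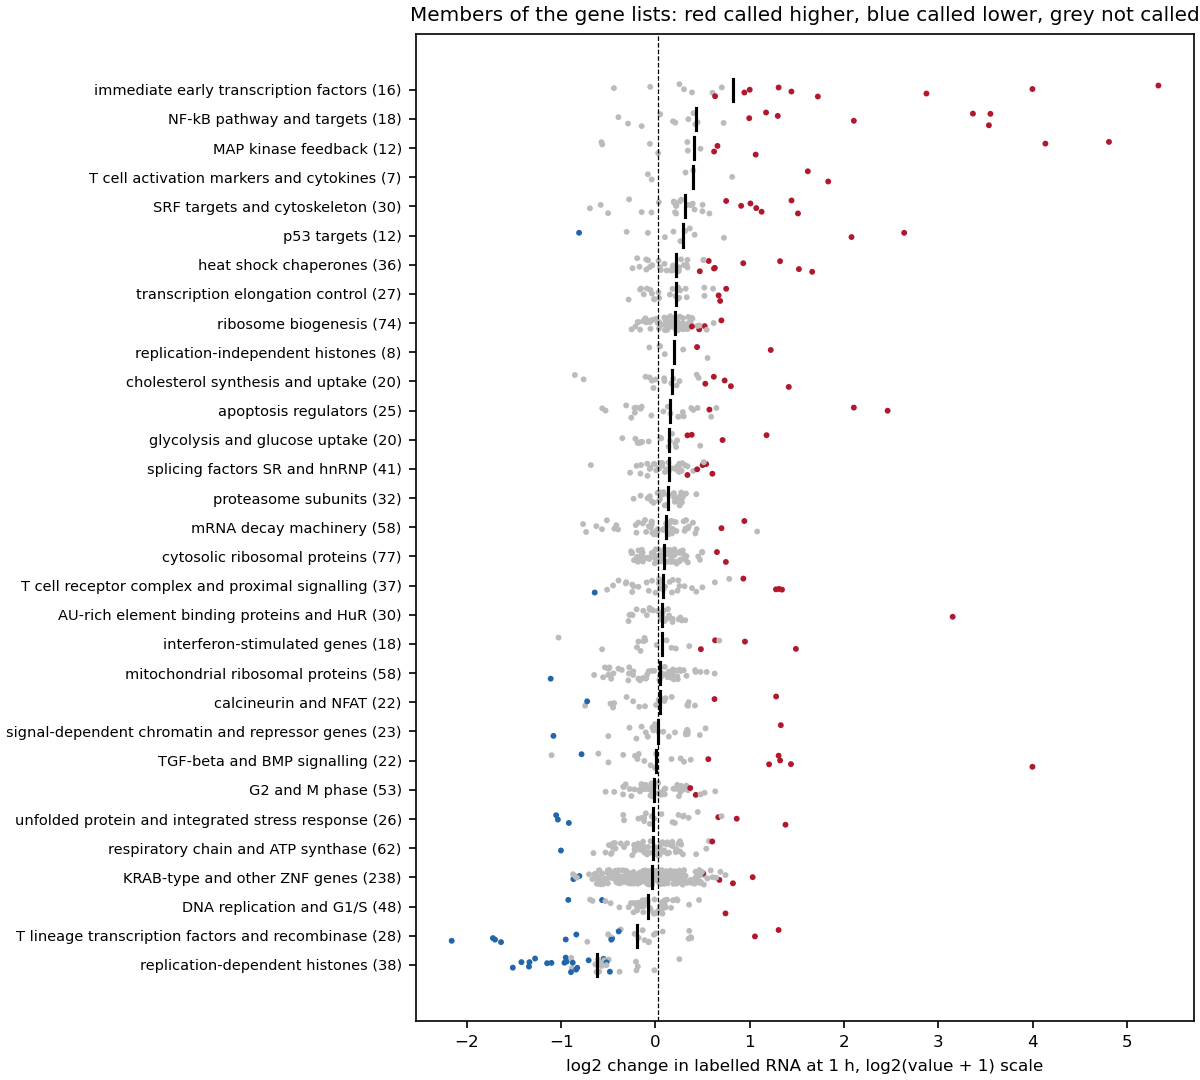
Log2 change in labelled RNA at 1 h of each measured member of the 31 lists with 5 or more measured genes, number measured in brackets. Red points were called higher and blue points lower, black bars are list medians and the dashed line the median of all genes (0.03); medians run from -0.62 for replication-dependent histones to 0.82 for immediate early factors.

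In the machinery of RNA and protein synthesis few genes were called. The shares called higher were 5.41% for ribosome biogenesis, 3.45% for mRNA decay and 2.6% for cytosolic ribosomal proteins, near the 4.2% of all genes. They were 11.1% for elongation control and 12.2% for splicing factors. Of the 1871 genes with the highest unactivated level, 140 were called higher. Ribosome biogenesis had 4 of 74 members up and 0 down (median 0.21), led by the helicase DDX21, which went from 1129 ± 80.8 to 1831 and 1840.3 (0.70 ± 0.10), with BRIX1 (0.52 ± 0.14), NOLC1 (0.46 ± 0.12) and WDR43 (0.39 ± 0.12). With quantile normalisation, a constant prior variance or only the 2 groups, 1 of the 74 was called. Transcription elongation control had 3 of 27 up (median 0.21): CCNT1, the cyclin of P-TEFb, went from 598 ± 88.8 to 934 and 993 (0.69 ± 0.12), MEPCE, which stabilises the 7SK RNA that holds P-TEFb inactive, rose by 0.75 ± 0.19 (not called when only the 2 groups were fitted) and the elongation factor partner EAF1 by 0.67 ± 0.14. Of 58 mRNA decay genes BTG1 and the exosome nuclease DIS3 rose, the latter from 337 ± 52.8 to 506 and 589 (0.70 ± 0.13), with a median of 0.11. Of 41 SR and hnRNP splicing factors 5 rose and 0 fell (median 0.14): TRA2A (0.60 ± 0.17), CLK1 (0.54 ± 0.13), SRSF6 (0.50 ± 0.13), SRSF1 (0.44 ± 0.12) and HNRNPU (0.34 ± 0.10), but with quantile normalisation 0 rose, 1 fell and the median was -0.01. Of 77 cytosolic ribosomal proteins RPL23A (0.75 ± 0.18) and RPL22L1 (0.65 ± 0.18) rose and 0 fell, with a median of 0.10 that turned to -0.02 with quantile normalisation, and pseudogenes make the values of this family uncertain. Mitochondrial ribosomal proteins had MRPL14 down (-1.11 ± 0.31) of 58 and a median of 0.05 that turned to -0.01 with quantile normalisation. The respiratory chain had UQCRC2 up (0.60 ± 0.16) and ATP5G1 down (-1.001 ± 0.31) of 62 with a median of -0.03, and 0 of the 62 were called with a constant prior variance or with only the 2 groups. MRPL14 was not called with only the 2 groups either. Of 32 proteasome subunits 0 were called by limma (median 0.13), and at an unadjusted p under 0.05 1 were higher and 0 lower.

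Lipid and sugar metabolism showed a few rises. Of 20 measured genes of cholesterol synthesis and uptake 5 rose and 0 fell (median 0.18). INSIG1, which holds the sterol sensor in the endoplasmic reticulum, rose from 405 ± 98.7 to 928 and 1233 (1.41 ± 0.15). The synthesis enzymes IDI1 (0.73 ± 0.15) and HMGCS1 (0.62 ± 0.20) and the sterol carrier STARD4 (0.53 ± 0.16) rose too, and 3 of the 5 calls held when only the 2 groups were fitted, without HMGCS1. Of 20 genes of glycolysis and glucose uptake 4 rose and 0 fell, with a median of 0.15 that turned to -0.05 with quantile normalisation. The glucose transporter SLC2A3 went from 18.7 ± 9.10 to 39.6 and 47.7 (1.18 ± 0.25), PFKFB3 rose by 0.71 ± 0.21, the lactate transporter SLC16A1 by 0.39 ± 0.12 and PKM by 0.34 ± 0.11. Of these 4 calls, SLC2A3 alone held when only the 2 groups were fitted, and its call was lost on the linear scale.

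Of 22 measured genes of TGF-beta and BMP signalling 6 rose and 1 fell, with a median of 0.00 that turned to -0.08 with quantile normalisation. Apart from KLF10 and ID3 they were SKIL, a repressor of SMAD activity, from 38.4 ± 2.81 to 96.6 and 115 (1.44 ± 0.20), the ligand TGFB1 (1.32 ± 0.33), the corepressor TGIF2 (1.21 ± 0.18) and the ubiquitin ligase SMURF2 (0.56 ± 0.18), while PMEPA1, an inhibitor of SMAD signalling, fell (-0.78 ± 0.20). TGFB1 was not called on the linear scale. Of 18 interferon-stimulated genes 4 rose, among them HLA-E (1.49 ± 0.28), IRF1 and B2M (0.48 ± 0.13), and 0 fell (median 0.07), and HLA genes resemble one another closely. When only the 2 groups were fitted 1 of the 18 was called. Of 23 chromatin and repressor genes ARID5A rose (1.33 ± 0.32) and TLE1 fell (-1.08 ± 0.32), with a median of 0.03 that turned to -0.01 with quantile normalisation, and TLE1 was not called with a constant prior variance. Of 238 zinc finger genes 4 rose and 2 fell (median -0.04), with ZNF101 up from 138 ± 34.9 to 227 and 338 (1.03 ± 0.16), ZNF655, ZNF557 and ZNF259 up by 0.82 ± 0.14, 0.68 ± 0.20 and 0.51 ± 0.15, and ZNF248 and ZNF33B down at -0.87 ± 0.23 and -0.81 ± 0.23. With only the 2 groups 2 of the 238 were called higher and 0 lower. Of 3 nuclear-retained RNAs 0 were called by limma (2 higher at an unadjusted p under 0.05), with MALAT1 at 0.36 and an adjusted p of 0.0555.

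The same test in total RNA from the same times called 59 rises (0.788%) and 11 falls (0.147%). Of the 314 labelled rises 47 (15%) were also called in total RNA, which is 79.7% of the total rises, and of the 155 labelled falls 7 (4.52%), which is 63.6% of the total falls. Replication-dependent histones had a median change of -0.34 in total RNA with 2 of 38 called lower, against -0.62 and 18 in labelled RNA. The difference between the labelled and the total change, tested by limma as an interaction, was called for 24 genes (0.321%), 18 with the larger value in labelled RNA and 6 with the smaller, and 776 genes had an unadjusted p under 0.05. With median centring the split was 45 and 4, with quantile normalisation 39 and 6, with a constant prior variance 19 and 15, and on the linear scale 48 and 52. Samples of labelled and total RNA were treated as independent, since the means do not show how the values of a culture moved together.

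Several of the 24 genes were called in labelled RNA and not in total RNA. CD82 rose by 1.62 in labelled RNA and had 0.03 ± 0.12 in total RNA, a difference of 1.59 ± 0.27, although its labelled rise was not called on the linear scale. NFKB1 had 1.17 against 0.08 (difference 1.09 ± 0.16) and HSPA8 1.52 against 0.41 (1.11 ± 0.19). MYB, a fall of this kind, had -0.95 in labelled and -0.02 in total RNA (difference -0.93 ± 0.14), and RAG2 had -2.16 against -0.38 (-1.78 ± 0.38). For other genes no difference was called. DUSP2 rose by 4.81 and 4.69 (difference 0.12 ± 0.21, adjusted p = 0.883), JUNB by 2.87 and 3.03 (-0.15 ± 0.37), and SOX11 fell by 1.70 and by 1.30 on the log2 scale (-0.40 ± 0.31). In total RNA the fall of SOX11 and that of ARRDC3 (-1.39 ± 0.14) were called.

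**Figure D4:**
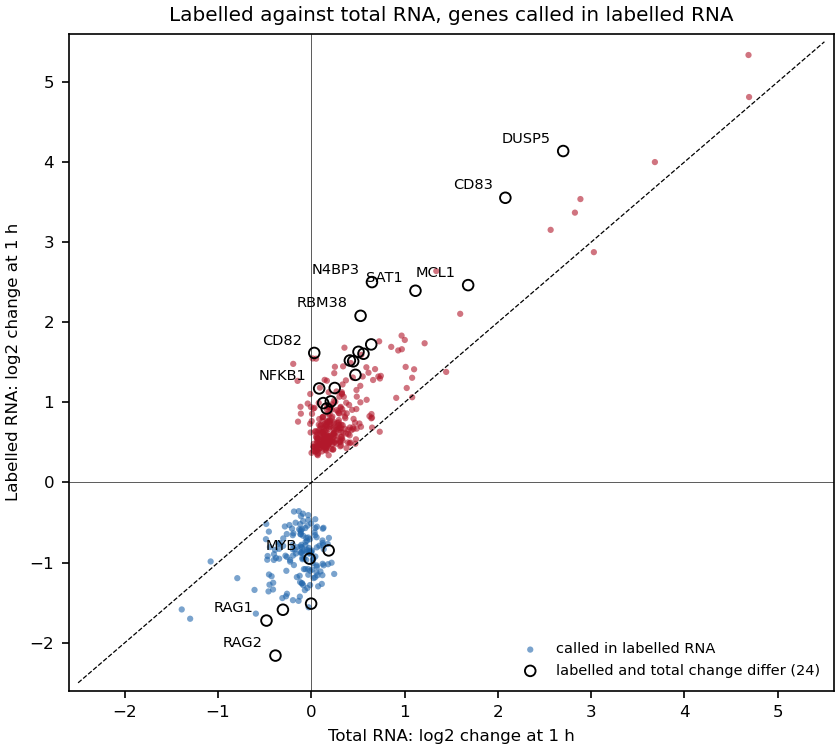
Log2 change at 1 h in total RNA (horizontal) and labelled RNA (vertical) of the 469 genes called in labelled RNA, red for rises and blue for falls; the dashed line marks equal change. Open circles are the 24 genes whose labelled and total changes differed by limma; CD82, NFKB1 and MYB lie near 0 on the total RNA axis.

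The next hour of labelled RNA, which shares the 1 h samples with the comparison above, had 191 genes higher (2.55%) and 167 lower (2.23%) at 2 h than at 1 h by limma. NFKBIA fell back from 432 ± 17.5 (n = 2) at 1 h to 83.2 ± 9.94 (n = 3) at 2 h, a change of -2.36 ± 0.23. TNFAIP3 (-1.12 ± 0.20), JUNB (-1.26 ± 0.28), MCL1 (-0.98 ± 0.12), SRF (-1.03 ± 0.22), DNAJB1 (-1.48 ± 0.18) and HSPA8 (-0.82 ± 0.11) were lower as well. These genes thus had a higher labelled level at 1 h than at 2 h. DUSP5 instead went on from 93.3 ± 7.37 to 747 ± 75.7 (2.99 ± 0.15), NAB1 from 328 ± 35.1 to 1996 ± 139 (2.60 ± 0.15) and NFKB1 from 187 ± 22.5 to 434 ± 8.68 (1.21 ± 0.14). IER3 and DUSP2 had changes of -0.02 ± 0.21 and 0.11 ± 0.14, smaller than their error, and were not called. RAG1 fell further, from 160 ± 33.6 to 38.6 ± 3.03 (-2.02 ± 0.23), whereas HIST1H4B stood at 67.1 ± 7.97 and 82.8 ± 14.3 (0.30 ± 0.20, adjusted p = 0.499). INSIG1 fell from its 1 h value by 0.80 ± 0.15 on the log2 scale.

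**Figure D5:**
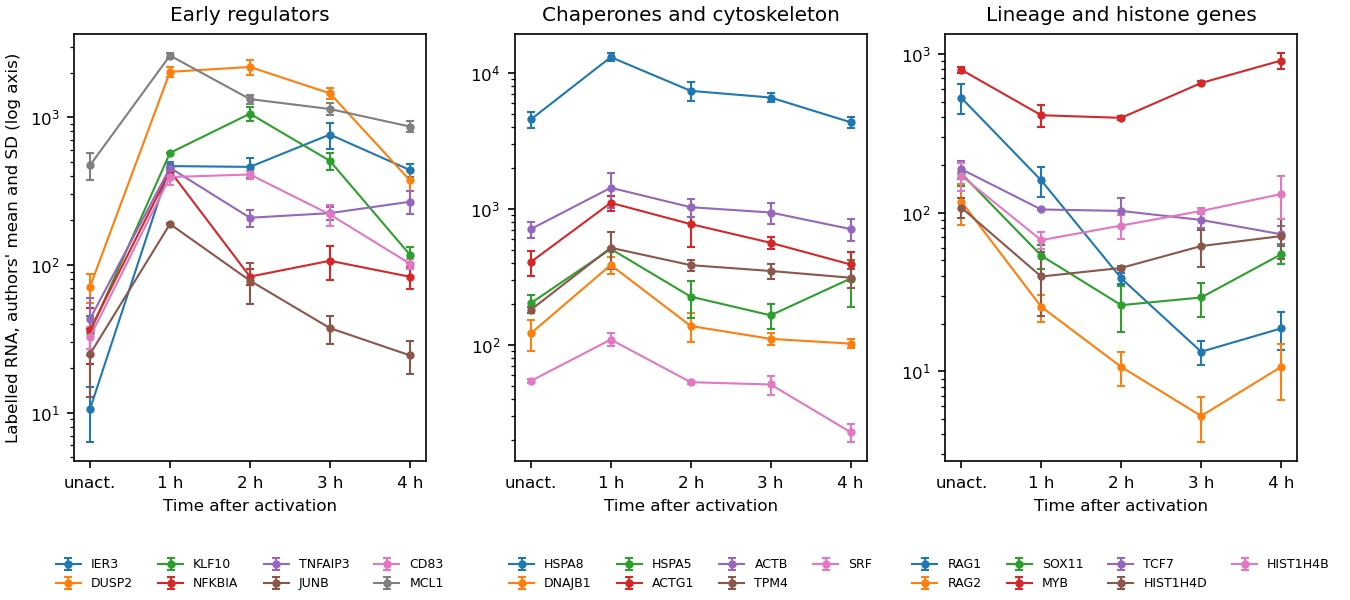
Labelled RNA of 22 genes in unactivated cells and at 1, 2, 3 and 4 h, as the authors' mean with SD (log axis; n = 3, and 2 at 1 h), in 3 panels. NFKBIA and JUNB are highest at 1 h and lower at 2 h, HSPA8 peaks at 1 h, and RAG1 goes from 529 before activation to 160 at 1 h and 38.6 at 2 h.

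Called rises had shorter genes at the median. The median span from first to last annotated base was 24.96 kb for the called rises, 33.6 kb for the called falls and 39.4 kb for all genes, with spans in GENCODE release 29 found for 7405 of 7485 genes. The 15 rises past 2 had a median span of 9.83 kb, with 8 of them under 10 kb, and the rises past 1 had 14.9 kb. By span, 6.35% of genes under 10 kb were called higher, 5.70% of those from 10 to 30 kb, 3.64% of those from 30 to 100 kb and 1.92% of those over 100 kb. For called falls the shares were 2.69%, 1.60%, 1.93% and 1.60%. The median SE was 0.25 in the shortest class, which had the highest share of called rises, and 0.20 in the longest.

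Calls also moved with the level. Of the 1871 genes with the highest unactivated level, 140 were called higher and 43 lower, and of the 1872 with the lowest 62 and 20, with a median SE of 0.15 and 0.30. HuR is an RNA-binding protein that stabilises many early response mRNAs. By the authors' deposited table, 19.4% of all genes were HuR targets by iCLIP, which maps binding by crosslinking. The share was 32.8% (103 of 314) among called rises and 13.5% (21 of 155) among called falls. By the deposited call of any method it was 25% (61 of 244 with a call) among rises. Among falls it was 13.7% (13 of 95), against 11.6% of all genes. The median HuR LOD score at 0 h was lower in rises (-10.1) and higher in falls (-7.75) than in all genes (-9.23). Within the 1871 genes of highest level the iCLIP share was 49.3% (69 of 140) of called rises against 32.5% of all genes. Within the 1872 of lowest level it was 12.9% (8 of 62) against 9.62%. The level thus moved with the iCLIP share, and its part in the result was not tested beyond these classes.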

How the data were processed

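Reads were aligned with TopHat2, counted with HTSeq and processed with edgeR on hg19, per the submitters' processing notes, without versions. The authors deposited, per gene and group, a mean and an SD of the normalised expression signal, with no value for a single sample, a separate RPKM column (not used in any test), and HuR LOD scores and target calls. The deposited LOD score was summarised by medians only. In total RNA at 1 h the deposited SD is a sample SD: 3047 of 3047 genes with values under 50 gave back whole multiples of a step within 0.05 of a read. The labelled 1 h values did so for 85 of 2699 genes (3.15%), so a sample SD is an assumption for labelled RNA. The 2 values at 1 h and the possible ranges rest on it. Whole reads were not recovered, no count test was run and depth is unknown.

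The design had assumed values of single samples. Because the table holds summaries, limma 3.58.1 in R 4.3.3 was run on log2(mean + 1), with SDs converted by the delta method. The variance of each gene was pooled over the 5 labelled groups (9 degrees of freedom; 18 over all 10 groups for the interaction) and moderated with a trend and the robust option. Benjamini-Hochberg adjustment ran over all 7485 genes, with a threshold of 0.05. The fold change scale understates low genes. The genes named are the 15 largest rises, the 12 largest falls, up to 4 called members of each of 32 lists, and GAPDH, ELAVL1, ACTB, MYC and HSPA8. A few of these are not reported here. Any further gene was named after its values were seen. The comparison, lists and members were chosen with earlier results of these data known. Where fewer than 80% of a gene set were matched to a property, the check counts as void and any share is only a description. On simulated data with known changes, 14 of 50 genes changed by 0.6 on the log2 scale, 37 of 50 changed by 1 and 49 of 50 changed by 2 were called, and 9 of 7285 unchanged genes. Each simulated gene had the same relative spread in every group. In the data the median coefficient of variation was 18.2% in unactivated cells and 11.6% at 1 h. The simulation therefore cannot give the rate of false calls in these data. Alternatives were other pseudocounts (0.5 and 5), a filter on a mean of 10, median centring, quantile normalisation, the linear scale, a constant prior variance, and other sets of groups in the fit. Coordinates and promoters are those of GRCh38.p14 RefSeq, matched by symbol or Ensembl ID, and were not mixed with hg19 positions.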

Additional observations from a re-analysis of the deposited data

Results flagged for a closer look

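For 24 genes the labelled and the total RNA changed by different amounts at 1 h, by an interaction test in limma with Benjamini-Hochberg adjustment. Among the genes named in the text, the labelled change exceeded the total change by 1.44 in DUSP5, 1.47 in CD83, 1.85 in N4BP3, 0.78 in MCL1, 1.28 in SAT1, 1.55 in RBM38, 1.08 in NAB1, 1.59 in CD82, 0.87 in PTPN7, 1.11 in HSPA8, 1.06 in TPM4, 1.09 in NFKB1, 1.13 in TMSB4X and 0.76 in LCP1 on the log2 scale. The labelled less total change was -1.78 in RAG2, -1.24 in RAG1, -1.51 in HIST2H2BF and -0.93 in MYB. The labelled samples varied more between replicates than the total samples in unactivated cells (median coefficient of variation 18.2% against 7.91%).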

How the results depend on the processing

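No paired analysis was possible because the deposited table holds group means and SDs, so replicate letters cannot be followed. For the same reason leaving out single samples was not run. The 469 calls became 291 (175 up) with a constant prior variance, 231 (147 up, 84 down) when only the 2 groups were fitted and 1021 (621 up, 400 down) with all 10 groups, of which 261, 228 and 466 were shared with the 469. Other settings gave between 372 and 512 calls. In total RNA the linear scale gave 41 calls (25 up), median centring 39 up and 17 down, and quantile normalisation 17 down. The interaction called 49 genes (45 up) with median centring, 45 (39 up) with quantile normalisation and 100 (48 up, 52 down) on the linear scale, and 15 down with a constant prior variance. Median centring moved the median of the interaction from -0.03 to 0.08. At 2 h against 1 h, 124 genes were higher with a constant prior variance. The cause was not tested. Of the 106 named genes 19 lost their call with quantile normalisation, 23 on the linear scale, 29 with a constant prior variance and 33 with only the 2 groups, and 0 with either pseudocount, the filter, median centring or all 10 groups. None reversed under these alternatives. List medians changed sign for 8 lists with quantile normalisation and 1 with median centring; among them calcineurin and NFAT turned to -0.07 and the list with AU-rich element binding proteins to -0.05.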

Other observations

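The genes below were chosen after their values were seen and belong to no list, and each was called by limma at 1 h. Higher in labelled RNA were the actin monomer-binding peptide TMSB4X (from 232 ± 44.0 to 706 and 732, 1.63 ± 0.12), the actin bundler LCP1 (0.92 ± 0.10), the ARP2/3 subunit ARPC1B (1.18 ± 0.29), the actin-binding LIMA1 (1.37 ± 0.17) and the integrin chain ITGA5 (1.59 ± 0.24). The adaptor TRAF4 rose from 40.8 ± 20.3 to 138 and 147 (1.78 ± 0.24) and the growth factor PDGFA from 4.45 ± 2.05 to 14.01 and 20.4 (1.74 ± 0.24). The glutamine transporter SLC1A5 (0.69 ± 0.21), the common gamma chain IL2RG (0.94 ± 0.22) and the antioxidant transcription factor NFE2L2 (0.87 ± 0.15) were higher too.

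Lower in labelled RNA were the chemokine receptor CXCR4 (from 597 ± 69.6 to 295 and 394, -0.79 ± 0.17), the selectin ligand SELPLG (-1.03 ± 0.28), the integrin chain ITGAE (-1.16 ± 0.26) and the PI3 kinase regulatory subunit PIK3R1 (-0.76 ± 0.14). The cell cycle regulators SKP2 (-0.91 ± 0.19), E2F7 (-0.81 ± 0.19) and FOXM1 (-0.78 ± 0.23) were lower, as were the catabolic enzymes HADH (-1.03 ± 0.29), CAT (-0.96 ± 0.27), MUT (-0.95 ± 0.25), ETFDH (-0.75 ± 0.22) and IDH1 (-0.74 ± 0.20). None of these falls was called in total RNA by limma, where their adjusted p ranged upwards from 0.142 (PIK3R1).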
